A study of Mus musculus with 8 samples.

Results

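The genes described here are the 69 cytosolic ribosomal protein genes that were expressed at a mean of at least 10 TPM in mouse embryos with and without the nuclear receptor Gcnf. TPM is a read count divided by gene length and expressed as a share of the whole library. Members were selected on mean TPM and on symbol, as protein-coding genes with the symbol Rpl or Rps followed by a number and an optional a, l or x, together with Rplp0, Rplp1, Rplp2 and Rpsa. Kinases of the Rps6k type and pseudogenes were left out. Of 55421 gene identifiers, 80 met the symbol rule, and 69 of these reached the minimum, 42 of the large and 27 of the small subunit. The minimum was set on the mean over all 8 libraries, so the levels below are given as a description. The rule itself uses neither genotype nor region. Just inside the minimum were Rps12 at 12.2, Rpl9 at 12.4 and Rps6 at 13.3 TPM, and just outside it was Rps27 at 8.72 TPM. Rps6 reached the minimum only through the wild types, at 15.2 to 21.9 TPM, against 6.57 to 10.2 TPM in mutants. Its fall in mutants, given below, is therefore not independent of the rule.

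The 4 groups of 2 libraries each were sequenced at stage E9.25, at 9 to 11 somites. Anterior pieces (pharyngeal arch 1 and everything in front of it) came from Gcnf-/- embryos, numbered 159 and 163, and from wild-type embryos, numbered 153 and 156. Posterior pieces (pharyngeal arch 2 and everything behind it) came from the same 2 genotypes with the same numbers. Gcnf (germ cell nuclear factor) is the product of Nr6a1 and a nuclear receptor without a known ligand. The labels name neither the kind of mutant allele nor the strain, nor do they say whether a group's 2 libraries are from different embryos or whether pieces with the same number came from 1 embryo. The p-values therefore measure only the spread between these libraries. In the wild types it may be technical, while the 2 mutant libraries of each piece differed in Xist and Ddx3y, given below, and so were not repeats of 1 embryo.

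Ribosomal proteins assemble with ribosomal RNA into a small subunit, which decodes the message, and a large subunit, which joins amino acids. Cells make them in step, because a surplus of an unassembled protein is degraded, and their messages typically begin with a run of pyrimidines, the 5′ terminal oligopyrimidine (TOP) motif, through which mTOR signalling controls their translation. Neural crest and craniofacial tissue of this stage is known to be sensitive to defects of ribosome assembly, and Myc proteins are known activators of genes for ribosome assembly.

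Reads in genes numbered 27064114 to 52957993 per library, recovered from the TPM values and gene lengths. At these depths 3 reads in a gene of 1 kb equalled 0.2 to 0.403 TPM, well below every member. Genes of the trunk and tail (Hoxb9, Cdx2 and T) summed to 372 to 689 TPM in posterior and 6.84 to 8.93 TPM in anterior libraries, and Otx2, a gene of the forebrain and midbrain, was at 0.637 to 3.31 TPM in posterior and 117 to 152 TPM in anterior libraries, as the piece labels say. Nr6a1 itself was read at 240 and 202 TPM in anterior mutants and 194 and 205 TPM in anterior wild types, and at 158 and 116 TPM in posterior mutants and 157 and 165 TPM in posterior wild types. This does not check the genotype labels, because the labels do not say which part of the gene the allele lacks. Globin transcripts took 22489 to 44504 TPM in mutants, against 4258 to 10007 TPM in wild types. Both mutant libraries numbered 159 contained Xist (25.3 and 30.9 TPM) and almost no Y-linked Ddx3y (0.155 and 0.0768 TPM), while the other 6 libraries had 26.2 to 39.4 TPM of Ddx3y and at most 0.0749 TPM of Xist. TPM is a share of the library, so in these bulk samples fewer cells of a type and less RNA per cell cannot be told apart.

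The start sites of these genes are shown because TOP messages are defined by their first bases. RefSeq promoter sequences (GRCm38.p6) were matched for 51 of the 69 members. A pyrimidine run, defined as a C followed by at least 4 more pyrimidines and beginning within 5 bases of an annotated start, was found in 25 of them, or 49%, against 21.2% of 27025 genes. The ETS-type motif CCGGAA, sought on both strands of the 300 bases around the start, was found in 29 members, or 56.9%, against 16.7% of all genes. The YY1-type motif AAGATGGC, also sought on both strands, was found in 4 members, or 7.84%, against 3.19% of all genes. The 30 bases around the start are shown for 10 of the matched members that passed a test below, 5′ to 3′ along the gene, with 15 bases on either side of the start and the pyrimidine run in capitals. The first 5 have a run, Rps27l at the first of its 2 annotated starts:
Rps6 (chr4:86857353-86857382, minus strand): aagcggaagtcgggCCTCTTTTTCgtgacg
Rpl38 (chr11:114668565-114668594, plus strand): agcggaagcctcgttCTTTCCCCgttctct
Rpl31 (chr1:39367836-39367865, plus strand): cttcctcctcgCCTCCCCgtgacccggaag
Rps23 (chr13:90923107-90923136, plus strand): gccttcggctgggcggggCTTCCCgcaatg
Rps27l (chr9:66946071-66946100, plus strand): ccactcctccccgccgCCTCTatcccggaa
In the next 5 no run was found by this definition at the annotated start:
Rpl27 (chr11:101442230-101442259, plus strand): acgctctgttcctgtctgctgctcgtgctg
Rps28 (chr17:33824548-33824577, minus strand): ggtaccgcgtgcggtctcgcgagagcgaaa
Rps4x (chrX:102189377-102189406, minus strand): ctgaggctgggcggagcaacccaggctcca
Rps15 (chr10:80292416-80292445, plus strand): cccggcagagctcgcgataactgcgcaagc
Rpl36a (chrX:134585639-134585668, plus strand): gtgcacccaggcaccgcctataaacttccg
Rpl22 and Rps19 had no run at any of their 2 and 3 annotated starts. The run depends on the exact start that is annotated, which is not always the start used in the embryo. A match of letters describes the sequence and is not a measured site. Among the 6 matched members that were lower in anterior mutants, 4 had a run, and among the 4 matched members that were higher in posterior mutants, 1 had a run.

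The members spanned a wide range of levels. The 5 highest by mean were Rplp1 (5995 TPM), Rpl8 (5824 TPM), Rpl4 (4683 TPM), Rplp0 (4357 TPM) and Rps15 (4017 TPM). Rplp0 and Rplp1 belong to the stalk of the large subunit, which recruits elongation factors, and Rpl8 and Rpl4 lie in its core. These 5 genes held 45.3% to 48% of the members' summed TPM in every library. The 5 lowest were Rps12, Rpl9 and Rps6, given above, with Rpl11 (14.4 TPM) and Rpl12 (18.3 TPM). The 18 members under 100 TPM together held 0.897% to 1.14% of it. In a ribosome nearly all of these proteins are present as single copies. Mammalian genomes hold many processed copies of these genes, and a read that fits several copies may be dropped or assigned elsewhere. The distinct 50-base windows of all protein-coding transcripts of each member were collected, and the share of windows also found in transcripts of other genes, on either strand, was counted. The median share was 26% among the 14 members over 1000 TPM, 38.3% among the 37 members of 100 to 1000 TPM and 50.5% among the 18 members of 10 to 100 TPM. Shared windows made up 84.6% of those of Rps6, 85.5% of those of Rpl36a and 62.4% of those of Rps27a, all under 30 TPM. Across the 69 genes the Spearman correlation of mean TPM with the shared percentage was -0.41, given as a description over genes that share the same libraries. How such reads were treated was not stated in the sources used, so the level of a member with many shared windows is uncertain, and a difference in it concerns only the reads assigned to that gene.

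**Figure D1:**
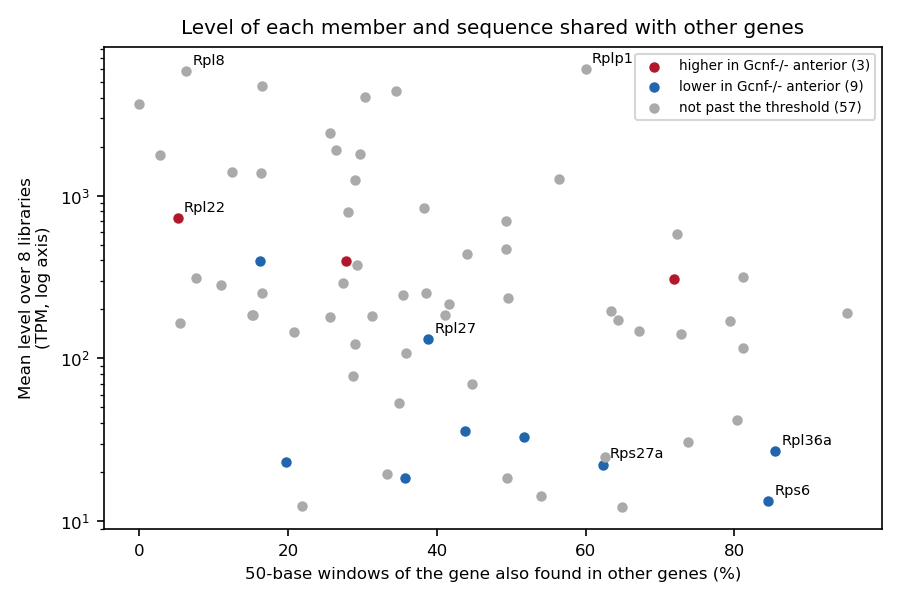
Mean level over the 8 libraries (TPM, log axis) against the percentage of 50-base windows found in other genes, 1 point per member. The 9 members lower in Gcnf-/- anterior pieces include Rps6 and Rpl36a at the lower right, while Rpl22, higher in Gcnf-/- anterior pieces, shares 5.16% of its windows.

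The summed TPM of the members, without rescaling, overlapped between genotypes in the anterior piece and was higher in mutants in the posterior piece. Protein-coding genes took 89.3% and 91.4% of TPM in anterior mutants, against 93.9% and 92.3% in anterior wild types. In posterior pieces they took 90.2% in both mutant libraries, against 89.2% and 82.7% in wild types. The overlap and the difference may therefore depend on scaling. The members' sum is given here in TPM only. This sum was 55126 and 60350 TPM in anterior mutants and 54052 and 56401 TPM in anterior wild types. In posterior pieces it was 50736 and 57356 TPM in mutants and 48407 and 44753 TPM in wild types, and both mutant libraries were higher. The large subunit genes summed to 30214 and 33226 TPM in posterior mutants, against 29889 and 27647 TPM in posterior wild types. The small subunit genes summed to 20522 and 24130 TPM in posterior mutants, against 18517 and 17106 TPM in posterior wild types. Libraries of 1 group differed too. In the posterior mutant group 65 of 69 members were higher in the library numbered 163 than in 159, with a median ratio of 1.14 between the libraries, and in the posterior wild-type group 60 of 69 were higher in 153 than in 156 (median ratio 1.11).

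**Figure D2:**
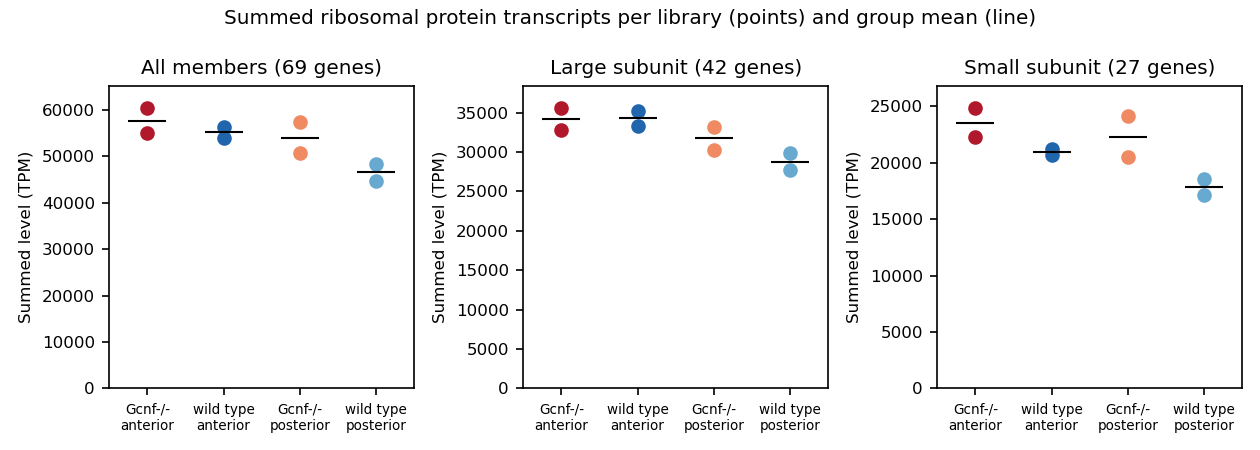
Summed TPM of the 69 members, of the 42 large subunit genes and of the 27 small subunit genes, with 1 point per library and a line at the group mean. The 2 posterior wild-type libraries, at 48407 and 44753 TPM for all members, are the lowest in each panel.

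In the anterior piece, where the design asks what loss of Gcnf changed in cranial tissue, 9 members fell and 3 rose in mutants. The background was 10.2% of 16699 tested genes lower and 13.3% higher, against 13% of the members lower and 4.35% higher. The share that fell was thus near the background and the share that rose below it. Differences are given as log2 of TPM + 1, mutant minus wild type, with the standard error of the fit, and tested with limma across all genes with Benjamini-Hochberg adjustment. The members' median difference was 0.05, against 0.02 for all tested genes, with 40 members above 0 and 29 below. Without the mutant anterior library 163 the balance turned to 31 above and 38 below, with a median of -0.03 (all genes -0.01). The median was 0.07 without the mutant anterior library 159 (all genes 0.04) and 0.0015 without the wild-type anterior library 153 (all genes 0.04). It was 0.11 after quantile normalization (all genes -0.04) and after protein-coding rescaling (all genes 0.08). A group range that did not overlap was seen for 25 members higher in mutants and 14 lower (36.2% and 20.3%), against 35.1% and 32.3% of all genes.

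Rps6, the small subunit protein phosphorylated by S6 kinases, had the largest fall. It met the minimum only through the wild types, so this fall is not independent of the rule. It was at 6.66 and 6.57 TPM in anterior mutants, against 21.2 and 21.9 TPM in anterior wild types, which rested on 105 and 93 reads in mutants and 316 and 333 reads in wild types. The difference was -1.57 ± 0.14 (SE; adjusted p = 0.00024). Both mutant libraries lay far below both wild-type libraries, and the 2 libraries of each genotype were close to each other. The gene (ENSMUSG00000028495) lies on chromosome 4 (GRCm38, 86854660 to 86857412, minus strand), and its shared windows match 14 annotated pseudogenes. Rpl27 (ENSMUSG00000063316), a large subunit protein, was at 88.5 and 99.5 TPM in anterior mutants, against 194 and 206 TPM in anterior wild types. Its difference was -1.08 ± 0.13 (SE; adjusted p = 0.00103), again with wide separation. Rpl21, of the large subunit, was at 17.6 and 17.5 TPM in anterior mutants, against 28.3 and 32.4 TPM in anterior wild types, a difference of -0.75 ± 0.12 (SE; adjusted p = 0.00375). These 3 genes passed the threshold whichever single library was left out.

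Rps27a and Rps27l also fell in anterior mutants. Rps27a encodes a fusion of ubiquitin with a small subunit protein and is one of the sources of free ubiquitin. It was at 17.7 and 13.6 TPM in anterior mutants, against 29.8 and 29.5 TPM in anterior wild types (-0.89 ± 0.17 SE; adjusted p = 0.0073). Rps27l, a paralogue of Rps27 and a known p53 target, was at 325 and 331 TPM in anterior mutants, against 470 and 481 TPM in anterior wild types (-0.53 ± 0.11 SE; adjusted p = 0.0111). For both genes the anterior mutant libraries lay below the anterior wild-type libraries. Rps27l is the only one of the 9, besides Rpl27, with a mean level over 100 TPM.

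The remaining falls were in Rpl36a, Rpl31, Rps29 and Rps23. Rpl36a was at 24.4 and 18.6 TPM in anterior mutants, against 37.1 and 35.9 TPM in anterior wild types (-0.75; adjusted p = 0.01 in limma). Rpl31 was at 29.2 and 33.9 TPM in anterior mutants, against 47.8 and 49.9 TPM in anterior wild types (-0.62; adjusted p = 0.00562 in limma). Rps29, in which variants are known in human Diamond-Blackfan anaemia, was at 16.1 and 14.9 TPM in anterior mutants, against 24.9 and 23.6 TPM in anterior wild types (-0.62; adjusted p = 0.011 in limma). Rps23, which helps form the decoding centre, was at 29.7 and 30.1 TPM in anterior mutants, against 42.9 and 40.9 TPM in anterior wild types (-0.47; adjusted p = 0.00988 in limma). None of these groups overlapped. Of the 9 lower members, 7 were among the 18 members of 10 to 100 TPM, and no member over 1000 TPM passed in either direction. Rpl31 passed whichever library was left out, as did Rps27a except without the mutant anterior library 163. Rps29 and Rpl36a did not pass without that library or without the wild-type anterior library 153. Rps29, Rps23 and Rps27l did not pass without the wild-type anterior library 153 or 156, nor did Rps27l without the mutant anterior library 159. Across the 69 members the Spearman correlation of the anterior difference was 0.39 with mean TPM and -0.33 with the shared percentage, as a description. The part of shared sequence in these falls was not tested. Rps27l and Rpl21 shared 16.2% and 19.7% of their windows.

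The 3 anterior rises were smaller. Rpl22, a large subunit protein known for its role in lymphocyte development, was at 920 and 874 TPM in anterior mutants, against 678 and 690 TPM in anterior wild types (0.39 ± 0.11 SE; adjusted p = 0.0331 in limma). Both mutant libraries were above both wild-type libraries. Its rise did not pass without the mutant anterior library 159, without 163, without the wild-type anterior library 153 or without 156.

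The number of anterior calls depended on scaling and on single libraries. It was 12 as reported, 5 without the wild-type library 153, 6 without 156 and 7 without the mutant library 163, and in each of these cases every remaining call was a fall. Scaling moved the balance more than the falls: there were 6 rises and 9 falls with median-of-ratios scaling, 14 and 12 after quantile normalization, and 14 and 9 when TPM was rescaled to protein-coding genes outside mitochondrial and globin genes.

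**Figure D3:**
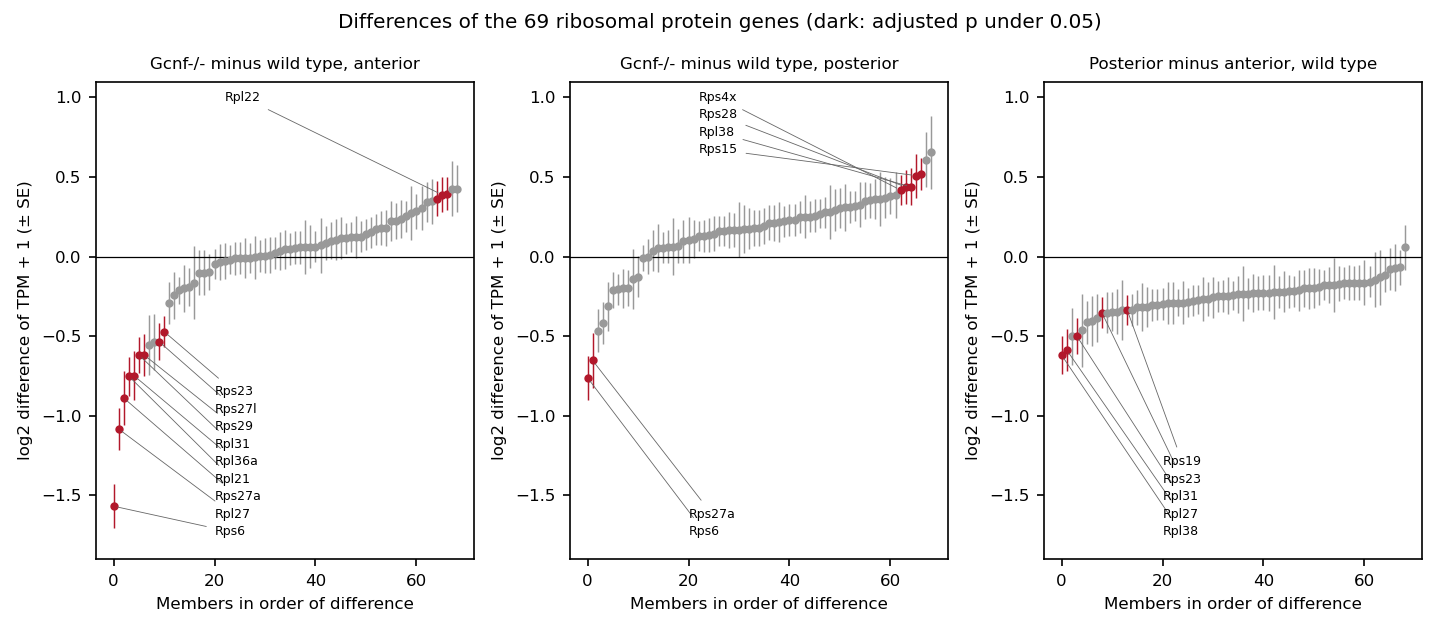
Differences of log2(TPM + 1) with standard errors for the 69 members, ordered within each panel, for Gcnf-/- minus wild type in anterior and posterior pieces and for posterior minus anterior in wild types. Dark points passed the threshold, and most of them are named: 9 fell and 3 rose in anterior mutants, 2 fell and 5 rose in posterior mutants, and 5 were lower in posterior than in anterior wild types.

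In the posterior piece 5 members rose and 2 fell in mutants. The balance turned to 1 rise and 4 falls without the posterior mutant library 163, and with no filter on low values there were 0 rises and 1 fall. The background was 8.56% of tested genes higher and 2.93% lower, against 7.25% and 2.9% of the members, so the counts were near those of genes at large. The bulk of the members nevertheless sat above 0: 56 were above and 13 below, with a median difference of 0.18, against 0.05 for all tested genes. Both mutant libraries were above both wild-type libraries for 39 members, or 56.5%, against 33.4% of all genes, and below them for 9 members, or 13%, against 19.8%. With median-of-ratios scaling the members' median was 0.13 and that of all genes 0.01. Single libraries moved both medians. Without the posterior mutant library 159 the members' median was 0.29 (all genes 0.07), and without 163 it was 0.12 (all genes 0.04). Without the posterior wild-type library 153 it was 0.27 (all genes 0.11), and without 156 it was 0.12 (all genes -0.01).

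Rps15, a small subunit protein, was at 4034 and 4939 TPM in posterior mutants, against 3260 and 3017 TPM in posterior wild types (0.51 ± 0.14 SE; adjusted p = 0.0479 in limma), and its 2 mutant libraries differed widely. Rpl38, the large subunit protein whose loss in mice alters translation of Hox messages and the axial skeleton, was at 288 and 311 TPM in posterior mutants, against 212 and 229 TPM in posterior wild types. Its difference was 0.44 ± 0.12 (SE; adjusted p = 0.0456 in limma), and in anterior pieces it was -0.19 ± 0.12 (SE; adjusted p = 0.275). Rps28 was at 81.2 and 89.7 TPM in posterior mutants, against 59.7 and 65.9 TPM in posterior wild types (0.44 ± 0.11 SE; adjusted p = 0.0325 in limma). For each of these genes the posterior mutant and wild-type libraries did not overlap.

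Rps4x, the X-linked small subunit gene that in humans has a Y-linked partner, was at 632 and 622 TPM in posterior mutants, against 478 and 460 TPM in posterior wild types (0.42 ± 0.10 SE; adjusted p = 0.0285 in limma). The posterior mutant library with Xist (632 TPM of Rps4x) and the one with Ddx3y (622 TPM) were almost equal, and in anterior mutants the one with Xist was the lower (626 and 706 TPM). Every wild-type library had Ddx3y and almost no Xist, so sex is partly mixed with genotype. The part of sex in this rise was not tested. The other X-linked members are Rpl10, Rpl36a and Rpl39, which did not pass in posterior pieces.

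Rps6 and Rps27a were the members that fell in both pieces, though the falls of Rps6 are not independent of the rule. Rps6 was at 7.89 and 10.2 TPM in posterior mutants, against 15.2 and 16.8 TPM in posterior wild types (-0.76 ± 0.14 SE; adjusted p = 0.0106 in limma). Rps27a was at 14.4 and 19.2 TPM in posterior mutants, against 29.4 and 24.3 TPM in posterior wild types (-0.65 ± 0.17 SE; adjusted p = 0.0432 in limma). Rpl27 was at 83.7 and 109.9 TPM in posterior mutants, against 127 and 139 TPM in posterior wild types, a difference of -0.46 ± 0.13 that did not pass (SE; adjusted p = 0.0588 in limma). In all, 9 members were lower in mutants without overlap in both pieces, or 13%, against 13.5% of all tested genes, and 18 were higher in both, or 26.1%, against 21.9%. No member was lower in one piece and higher in the other without overlap.

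The posterior calls rested on single libraries of both genotypes. None of the 7 remained past the threshold without the posterior wild-type library 153 or without 156, 2 did without the anterior wild-type library 153, and 2 did without the anterior 156. There were 12 calls without the posterior mutant library 159, of which 11 were rises, and 5 without 163, where Rps15, Rps4x, Rpl38 and Rps28 no longer passed and Rps6 and Rps27a did. Fitted on the 4 posterior libraries alone, 0 members passed. As deposited and with all 8 libraries, 29 members had an unadjusted p under 0.05. The share of all tested genes at that threshold is not given, so an excess among the members cannot be judged from this count.

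**Figure D4:**
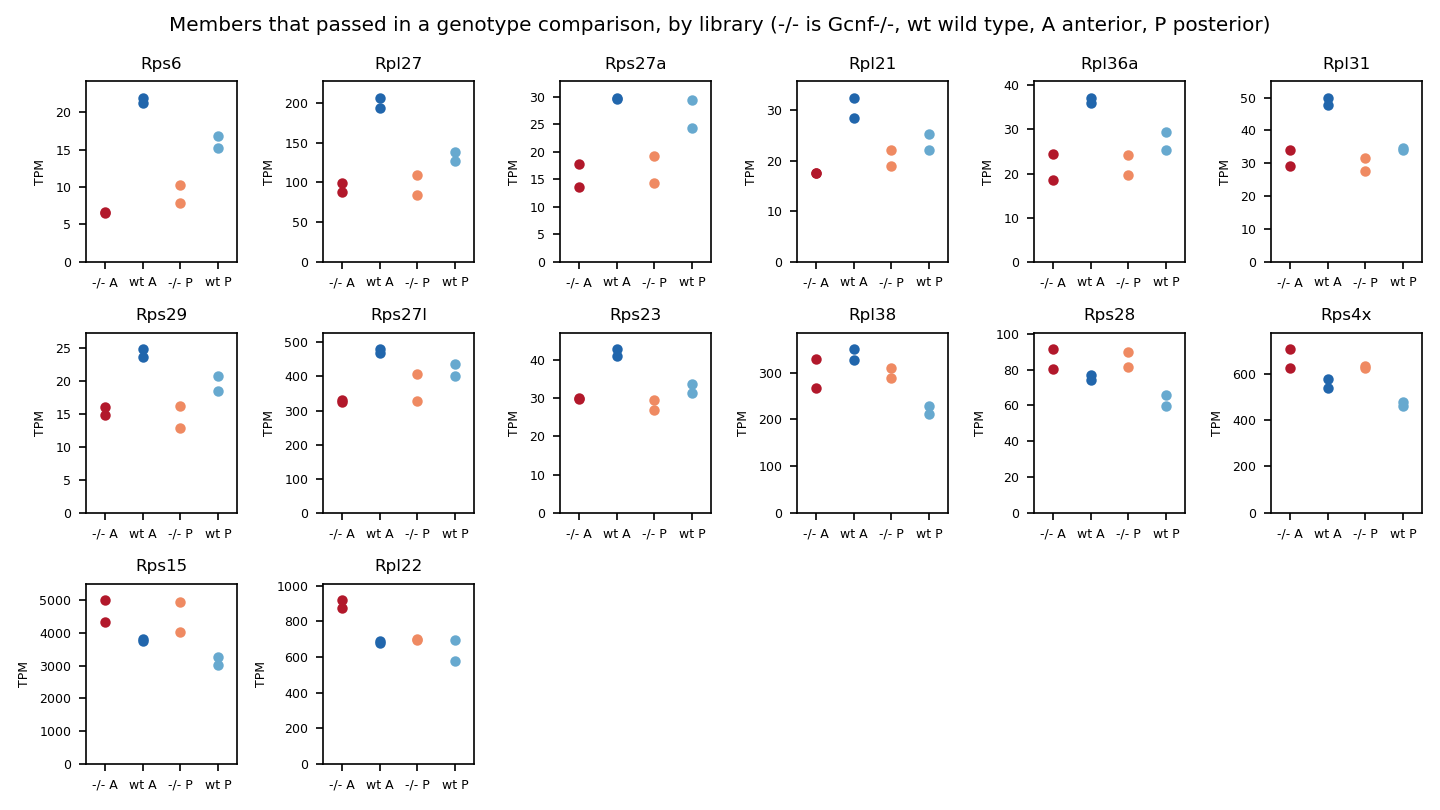
Level in TPM of 14 of the 16 members that passed in a genotype comparison, with 1 point per library and the 4 groups side by side, mutant left of wild type for each piece. Rps6, at 6.57 to 10.2 TPM in the mutants and 15.2 to 21.9 TPM in the wild types, separates the genotypes in both pieces. It met the minimum only through the wild types. Rpl38 separates the genotypes in the posterior piece (288 and 311 TPM in mutants, 212 and 229 TPM in wild types).

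Whether the genotype effect differed between the pieces was tested as an interaction, the anterior minus the posterior effect. No member passed in limma, against 1.01% of all tested genes. An unadjusted p under 0.05 was seen for 7 members (Rps6, Rpl38, Rpl27, Rpl21, Rpl31, Rpl10a and Rpl11), a count without the share of all genes beside it. The estimates leaned one way: 62 of 69 were below 0, so the effect was lower in the anterior than in the posterior piece, with a median of -0.18, against -0.04 for all tested genes. The size of this lean was not stable, and the all-gene median moved as well. Without the posterior mutant library 163 the members' median was -0.08 with 50 members below 0 (all genes -0.04). It was -0.10 without the anterior mutant library 159 (all genes -0.01) and -0.12 without the posterior wild-type library 156 (all genes 0.02). Without the posterior mutant library 159 it was -0.27 (all genes -0.05). It was -0.07 with 46 below 0 after protein-coding rescaling (all genes 0.05). After quantile normalization it was -0.08 with 44 below 0 (all genes -0.01). The members' median was below that of all genes in each of these settings. For Rps6 the interaction was -0.81 ± 0.19 (SE; adjusted p = 0.113) and for Rpl38 -0.63 ± 0.17 (SE; adjusted p = 0.145). Rpl38 was at 267 and 330 TPM in anterior mutants, against 351 and 328 TPM in anterior wild types, and these groups overlapped. Without the posterior mutant library 159, 3 members passed the interaction test.

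In wild types nearly every ribosomal protein message was lower in TPM in the posterior than in the anterior piece. The difference, posterior minus anterior, was below 0 for 68 of 69 members, with a median of -0.24, against -0.10 for all tested genes. Both posterior libraries were below both anterior libraries for 61 members, or 88.4%, against 41.7% of all genes. The all-gene shift depended on scaling. When TPM was rescaled to protein-coding genes outside mitochondrial and globin genes, the all-gene median became 0.01, the members' median -0.12, and 64 of 69 members were below 0. Mir6236, annotated as a microRNA and the highest gene in the table, took 39752 and 65297 TPM in posterior wild types, against 19019 and 24888 TPM in anterior wild types.

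In all, 5 members passed in this region comparison, all lower in posterior pieces (7.25%, against 6.65% of all genes lower). Rpl38 was at 212 and 229 TPM in posterior wild types, against 351 and 328 TPM in anterior wild types (-0.62 ± 0.12 SE; adjusted p = 0.00808 in limma), the largest difference and one with clear separation. Rpl27 was at 127 and 139 TPM in posterior wild types, against 194 and 206 TPM in anterior wild types (-0.59 ± 0.13 SE; adjusted p = 0.0198 in limma). Rpl31 was at 34.6 and 34 TPM in posterior wild types, against 47.8 and 49.9 TPM in anterior wild types (-0.50 ± 0.11 SE; adjusted p = 0.0177 in limma). Rps23 followed at 33.7 and 31.5 TPM in posterior wild types, against 42.9 and 40.9 TPM in anterior wild types (-0.35 ± 0.10 SE; adjusted p = 0.0433 in limma). Rps19, the gene most often mutated in human Diamond-Blackfan anaemia, was at 160 and 143 TPM in posterior wild types, against 190.3 and 192 TPM in anterior wild types (-0.34 ± 0.10 SE; adjusted p = 0.0482 in limma). Without the anterior wild-type library 153 or the posterior 153 no member passed, without the anterior 156 or the posterior 156 only 1 did, and 10 did without the posterior mutant library 159 or without 163.

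Between the mutant pieces no member passed in limma, against 16.1% of all tested genes. An unadjusted p under 0.05 was seen for 4 members (Rps6, Rpl22, Rpl15 and Rpl30), again without the share of all genes. The difference was below 0 for 50 of 69 members, with a median of -0.09, against -0.04 for all genes. This lean was lost without the posterior mutant library 159, where 33 were below 0 and the median was 0.01 (all genes -0.02). The median was -0.17 without the posterior mutant library 163 (all genes -0.06). Without the anterior mutant library 159 it was -0.14 (all genes -0.06), and without the anterior mutant library 163 it was -0.02 (all genes -0.005). Both posterior libraries were below both anterior libraries for 20 members, or 29%, against 30% of all genes. For Rpl38 the posterior minus anterior difference was 0.01 ± 0.12 in mutants (SE; adjusted p = 0.968). Without the posterior mutant library 159, 2 members passed, and 1 did without the posterior wild-type library 153 or without 156. The posterior mutant values of Rpl38, 288 and 311 TPM, lay between its anterior mutant values of 267 and 330 TPM.

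Other members with roles beyond the ribosome showed mostly small differences. Rpl11 and Rpl5 form, with the 5S ribosomal RNA, the particle that inhibits Mdm2 when ribosome assembly is disturbed. Rpl11 was at 12.2 and 12.8 TPM in anterior mutants, against 17.8 and 19.3 TPM in anterior wild types (-0.54 ± 0.18 SE; adjusted p = 0.0599 in limma), and Rpl5 was under the minimum with a mean of 4.09 TPM. Among stalk genes, Rplp1 was at 5537 and 5904 TPM in anterior mutants, against 6509 and 7530 TPM in anterior wild types, without overlap (-0.29 ± 0.13 SE; adjusted p = 0.138 in limma). Rplp0 and Rplp2 differed by -0.01 and 0.02 in the same comparison. Rpl10a, linked in mouse cells to selective translation, was at 22.7 and 39.7 TPM in posterior mutants, against 18.9 and 18.6 TPM in posterior wild types (0.65 ± 0.23 SE; adjusted p = 0.102 in limma), and its 2 mutant libraries lay far apart. Rpsa, whose protein is also known as the laminin receptor, was at 22.3 and 20 TPM in anterior mutants, against 19 and 19.9 TPM in anterior wild types (0.12 ± 0.13 SE; adjusted p = 0.564 in limma). Of the 21 matched genes listed for such roles, 2 fell and 0 rose in anterior mutants in limma (3 were higher and 5 lower at an unadjusted p under 0.05). In posterior mutants 2 fell and 2 rose (10 were higher and 2 lower at an unadjusted p under 0.05). At the adjusted threshold, 10.2% of all tested genes fell and 13.3% rose in anterior mutants, and 2.93% fell and 8.56% rose in posterior mutants. The counts at an unadjusted p have no such share beside them and cannot be set against these shares.

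Paralogue pairs kept their order in all libraries. Rps27l exceeded Rps27 by 31.9 to 53.7 times in mutants and 39.7 to 60.2 times in wild types. Rps27 had only 62 to 121 reads per library and shared 46.2% of its windows with other genes, against 16.2% for Rps27l. The size of this ratio is therefore uncertain. Rpl22l1, the paralogue of Rpl22, was at 0.26 to 0.278 of the level of Rpl22 in mutants and 0.275 to 0.305 in wild types. Rpl36al, which lies outside the symbol rule, fell in anterior mutants (-0.67; adjusted p = 0.0096 in limma) together with its partner Rpl36a. Rpl39l, Rpl3l and Rpl10l, known for expression in testis or muscle, were at 0.753 TPM or less in every library. Of 7 ribosomal protein and related genes outside the rule, 2 fell in anterior mutants, Rpl36al among them. Rps3a1, at a mean of 745 TPM, differed by 0.06 ± 0.11 in the anterior piece (SE; adjusted p = 0.744 in limma).

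Genes that assemble ribosomes were set beside the genes for the proteins. Of 52 tested genes for assembly of either subunit, 42 fell in anterior mutants and 13 in posterior mutants, and 0 rose in either piece in limma, where 0 of the higher values had an unadjusted p under 0.05. Of all tested genes 10.2% fell in anterior and 2.93% in posterior mutants. All 52 had anterior differences below 0, with a median of -0.60, against 0.05 for the ribosomal protein genes. In the posterior piece their median was -0.22, against 0.18 for the ribosomal protein genes. Bop1, of the PeBoW complex that matures the large subunit, was at 121 and 127 TPM in anterior mutants, against 298 and 300.3 TPM in anterior wild types (-1.26 ± 0.09 SE; adjusted p = 0.0001 in limma). Ddx21, a nucleolar helicase, was at 233 and 199.5 TPM in anterior mutants, against 487 and 468 TPM in anterior wild types (-1.14 ± 0.12 SE; adjusted p = 0.00049 in limma). Bysl, needed for the small subunit, was at 82.9 and 82.7 TPM in anterior mutants, against 168 and 165 TPM in anterior wild types (-1.0 ± 0.09 SE; adjusted p = 0.00027 in limma). For all 3 genes the anterior mutant values were far below the wild-type values. In posterior pieces the differences of Bop1, Ddx21 and Bysl were -0.61, -0.74 and -0.54, all past the threshold. The anterior count was 22 without the anterior wild-type library 153 and 23 without 156. The posterior count was 0 without the posterior wild-type library 153, 4 without 156, 5 without the mutant posterior library 163 and 6 without the anterior wild-type library 153 or without 156.

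Other parts of the pathway were counted in the same way, beside the same shares of all tested genes. Of 16 tested genes for RNA polymerase I, which transcribes ribosomal RNA, and its factors, 7 fell in anterior mutants and 3 in posterior mutants. Its subunit gene Polr1e was at 32.5 and 31 TPM in anterior mutants, against 66.2 and 62.8 TPM in anterior wild types (-1.0 ± 0.10 SE; adjusted p = 0.00045 in limma). Of 8 tested genes for chaperones that escort single ribosomal proteins, 5 fell in anterior and 2 in posterior mutants, among them Grwd1 (-0.86 in the anterior piece) and Heatr3 (-0.86). Of 77 tested genes for mitochondrial ribosomal proteins, 25 fell in anterior mutants, and in posterior mutants Mrpl34 rose (0.71; adjusted p = 0.0199 in limma) and 0 fell. At an unadjusted p under 0.05, 2 of the 77 were higher and 4 lower in posterior mutants, counts without the share of all genes. Their median was -0.29 in the anterior and -0.02 in the posterior piece.

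**Figure D5:**
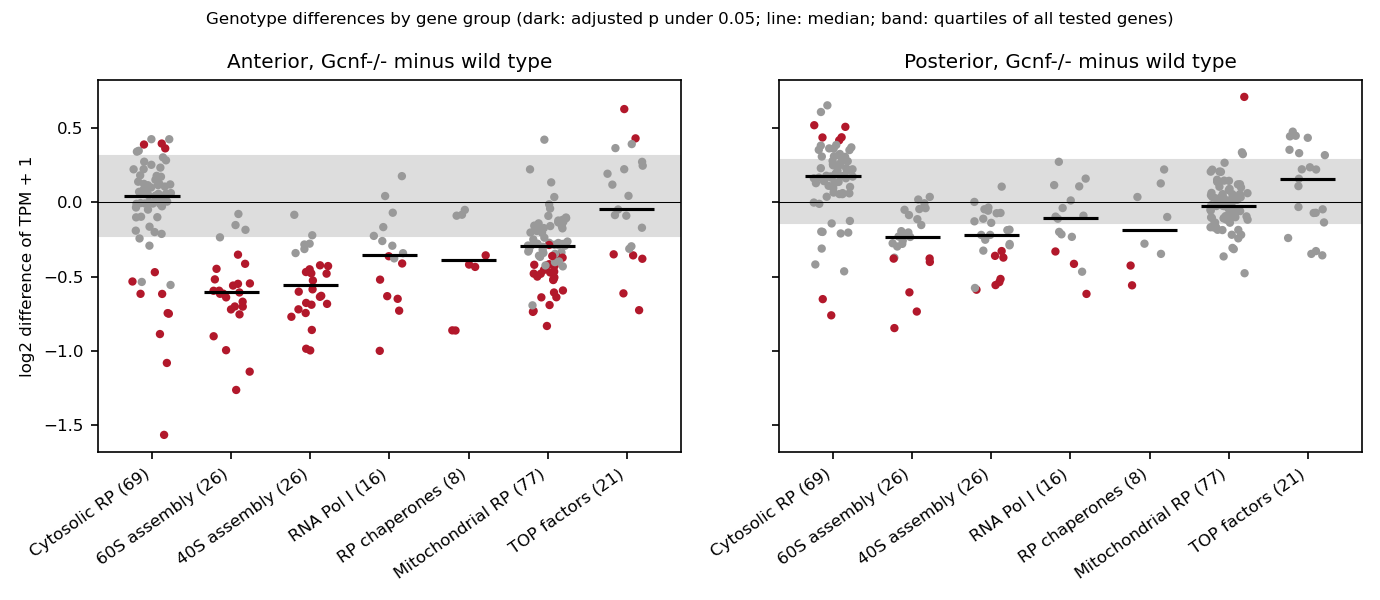
Genotype difference of log2(TPM + 1) for each gene of 7 groups in anterior and posterior pieces, with the group median as a line and the range between the quartiles of all tested genes as a band. The median of the assembly genes lies at about -0.60 (anterior) and -0.22 (posterior), while that of the cytosolic ribosomal protein (RP) genes lies at 0.05 and 0.18.

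Other messages with a TOP motif were mixed, where 13.3% of all tested genes rose and 10.2% fell in anterior mutants. Of 21 tested translation factor and related genes, 2 rose and 5 fell in anterior mutants, and 0 passed in posterior mutants in limma. In posterior mutants 11 had an unadjusted p under 0.05, a count without the share of all genes beside it. Eef1a1, which brings aminoacyl-tRNA to the ribosome, was at 6812 and 6997 TPM in anterior mutants, against 5088 and 5151 TPM in anterior wild types (0.43; adjusted p = 0.0243 in limma). Eef2, which moves the ribosome along the message, was at 5540 and 6594 TPM in anterior mutants, against 3876 and 3941 TPM in anterior wild types (0.63; adjusted p = 0.0184 in limma). Npm1, a nucleolar protein, was at 1805 and 1539 TPM in anterior mutants, against 2572 and 2530.5 TPM in anterior wild types (-0.61; adjusted p = 0.00751 in limma). Of 7 tested host genes of small nucleolar RNAs, Gas5 rose in both pieces. It was at 141 and 149 TPM in anterior mutants, against 82.7 and 88.3 TPM in anterior wild types (0.76; adjusted p = 0.00514 in limma).

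Genes that regulate ribosome production were also measured. Of all tested genes 13.3% rose and 10.2% fell in anterior mutants, and 8.56% rose and 2.93% fell in posterior mutants. Myc was at 80.8 and 78.3 TPM in anterior mutants, against 149 and 163 TPM in anterior wild types (-0.96 ± 0.09 SE; adjusted p = 0.00033 in limma). In posterior pieces it was at 126 and 117 TPM in mutants, against 109.9 and 105 TPM in wild types (0.18 ± 0.09 SE; adjusted p = 0.239 in limma). Its family member Mycn rose in both pieces, by 0.43 and 0.49, and so did Mxi1, an antagonist of Myc, by 1.32 and 1.27. Of 11 genes of this network 4 rose and 2 fell in anterior mutants, and 3 rose in posterior mutants. Ddit4, an inhibitor of mTOR signalling, was at 959 and 1478 TPM in anterior mutants, against 72.3 and 98.4 TPM in anterior wild types (3.8 ± 0.24 SE; adjusted p = 5.8e-05 in limma), and it rose in the posterior piece as well (3.38). Of 18 genes of the mTOR axis, 5 rose and 1 fell in anterior mutants and 1 rose in posterior mutants. Of 12 genes listed for the p53 response, 5 rose and 1 fell in anterior mutants and 3 rose in posterior mutants. Among them were Phlda3 (1.07 and 1.03) and Cdkn1a (0.46 and 0.85). Whether disturbed ribosomes had a part in these rises was not tested. Of the 10 genes for Rps6k kinases, 1 rose and 1 fell in anterior mutants, near the shares of all genes, and 2 fell in posterior mutants.

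Erythroid, visceral endoderm and neuronal markers differed with genotype as well. The 6 erythroid markers summed to 22055 to 43809 TPM in mutants, against 4210 to 9857 TPM in wild types, and the 4 visceral endoderm markers to 124 and 663 TPM in posterior mutants, against 1822 and 1468 TPM in posterior wild types. In anterior pieces the visceral endoderm markers summed to 5.78 and 8.44 TPM in mutants, against 99.6 and 10.2 TPM in wild types. The 3 neuronal markers summed to 341 and 500 TPM in anterior mutants, against 110 and 119 TPM in anterior wild types, and to 70.3 and 63.9 TPM in posterior mutants, against 33.3 and 32.4 TPM in posterior wild types. The 3 heart markers overlapped in posterior pieces, at 235 to 1976 TPM in mutants, against 256 to 772 TPM in wild types. The 3 endothelial markers overlapped in anterior pieces, at 115 and 152 TPM in mutants, against 122 and 98.9 TPM in wild types. In posterior pieces they were at 220 and 199 TPM in mutants, against 142 and 148 TPM in wild types. None of these markers was at 0 in every library. The part that a different mix of cells had in the members' differences was not tested.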

How the data were processed

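Poly-A RNA of 8 embryo pieces was sequenced from TruSeq libraries that do not mark strand, per the labels' protocols. The authors deposited 1 table of TPM values, in which each column sums to 1000000. CASAVA 1.8.2 and STAR with mm10 are named in the submitters' processing notes; annotation, counter and the treatment of reads with several matches were not given in the sources used here. GENCODE M21 supplied symbols, positions and the summed exon length, and named 55240 of 55421 identifiers. TPM times length, rescaled, gave whole reads within 0.01 for 98.8% to 98.9% of values above 0.

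Genes with at least 1 TPM in at least 2 libraries (16699, all 69 members among them) were fitted as log2(TPM + 1) by limma 3.58.1 (R 4.3.3). The model had 1 mean for each of 4 groups over all 8 libraries, 4 residual and 4.68 prior degrees of freedom and a trend. Tests were two-sided, adjusted over all genes of a contrast, with a threshold of 0.05. Counts at an unadjusted p under 0.05 are given without the share of all tested genes, so an excess cannot be judged from them. This scale understates changes of low genes. The fit was tested on simulated data. The alternatives were 2 pseudocounts, 2 filters, 4 scalings, fewer libraries, weights and a replicate block.

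The members and gene lists were chosen with earlier results of these data known. Genes named were the members past the threshold (up to 8 each way per contrast), the highest and lowest, those with listed roles or paralogues, and up to 4 of each other list by p; results for some genes are not reported here. Rpl15, Rpl30, Xist, Ddx3y and Mir6236 were named after their values were seen. Every column of the table was used.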

Additional observations from a re-analysis of the deposited data

Results flagged for a closer look

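Among the named genes, the genotype effect on Myc differed between the pieces. The interaction, anterior minus posterior effect, was -1.14 (limma, adjusted p = 0.007), with Myc lower in both anterior mutant libraries and slightly higher in both posterior mutant libraries. It did not pass without the posterior wild-type library 153 or without 156. With 2 libraries a group, no check for single outlying libraries was made.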

How the results depend on the processing

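No call of a named member reversed its direction under the 20 alternatives, and 3 of 24 calls of single members (Rps6, Rpl27 and Rpl21, lower in anterior mutants) passed under each of them. The call of Rps6 is not independent of the minimum on mean TPM. The number of calls was less stable than their direction, and the causes were not tested. In the anterior genotype comparison 12 members passed as reported, 26 after quantile normalization, 23 when TPM was rescaled to protein-coding genes outside mitochondrial and globin genes, 20 with library weights and 3 without both libraries numbered 153. In the posterior one 7 passed as reported, 1 with no filter on low values, 11 with median-of-ratios scaling, 14 after quantile normalization and after the protein-coding rescaling, 0 with only the 4 libraries compared, 2 with library weights and 0 without both 153 libraries. For posterior against anterior wild types these were 5 as reported, 2 with no filter, 3 with median-of-ratios, quantile or protein-coding scaling, 12 with only the 4 libraries, 14 with weights and 0 without both 153 libraries. Between the mutant pieces 0 passed as reported and 1 under each of those 3 scalings. Assembly genes lower in anterior mutants numbered 42 as reported and 9 without both 153 libraries. In posterior mutants they numbered 13 as reported, 5 with no filter, 2 with only the 4 libraries, 5 with weights and 0 without both 153 libraries.

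With single libraries left out, the member counts ran from 5 to 18 (anterior genotype), 0 to 12 (posterior genotype), 0 to 3 (interaction), 0 to 2 (mutant pieces) and 0 to 10 (wild-type pieces), and the assembly counts from 22 to 45 (anterior) and 0 to 10 (posterior). A group left with 1 library is then assumed to vary like the others. With a replicate block 12, 7, 0, 0 and 4 members passed in the same order, against 12, 7, 0, 0 and 5 without it. The labels do not say that a number marks 1 embryo; same-numbered libraries deviated together with a correlation of 0.136 in mutants and 0.0216 in wild types, so the numbers were not used as pairs. Adding the 11 symbol-rule genes under the minimum, or the ribosomal protein genes outside the rule, moved each group's mean summed TPM by less than the spread between its libraries (1 SD).

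The minimum on mean TPM keeps members above the level of a few reads, but low members still rested on modest counts. Rps29, for example, had 92 to 181 reads per library. With 2 libraries a group the power to call small differences is low, and shared sequence limits what a low member's value means.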
